A study of Saccharomyces cerevisiae with 9 samples.

Results

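The 26S proteasome of Saccharomyces cerevisiae was followed through the transcripts of its core particle and its regulatory particle while the kinase Ypk1 or Ypk2 was inhibited. Its genes were taken by standard name: the PRE genes, PUP1, PUP2, PUP3, SCL1, the RPN genes other than RPN4, and RPT1 to RPT6. The rule gave 33 of the 6268 features on the arrays, 14 for the core particle and 19 for the regulatory particle. All 33 had a value on each of the 9 arrays. RPN4 was left out because it encodes the activator of these genes and no subunit, and RPN14 fits the name rule although its product is an assembly chaperone.

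The study asks which genes are controlled by Ypk1 and Ypk2, a pair of AGC-family protein kinases that can replace one another for growth. Every culture was of a strain with both chromosomal genes deleted (ypk1Δ ypk2Δ), kept alive by a plasmid with one kinase and grown in SCD-Leu medium. The plasmid carried either the wild-type (WT) kinase or an analog-sensitive (AS) form, whose enlarged ATP pocket admits an inhibitor that the WT kinase tolerates. In the Ypk1 series, AS Ypk1 cells were set against WT Ypk1 cells, both given 2,3-DMB-PP1 at 0.5 µM. In the Ypk2 series, AS Ypk2 cells were set against WT Ypk2 cells, both given 3-MB-PP1 at 1 µM. Each series has an array at 0, 15, 30 and 60 min, with WT cells in the Cy3 channel and AS cells in the Cy5 channel. The last array compared WT Ypk2 cells in Cy5 with WT Ypk1 cells in Cy3, and its labels name no inhibitor. Each condition has 1 array. Each kinase had its own inhibitor and dose, so inhibitor, dose and kinase cannot be told apart. AS cells were in the Cy5 channel throughout both series, so neither can genotype and dye.

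The proteasome is the protease that degrades ubiquitin-tagged proteins in the cytosol and nucleus. Its core particle is a barrel of stacked rings, in which the outer alpha rings gate the entry channel and the inner beta rings hold the peptidase sites. The regulatory particle caps the barrel: a base with a ring of ATPases unfolds substrates and pushes them inside, and a lid removes their ubiquitin. In yeast the genes of both particles are transcribed under one activator, Rpn4, which binds a shared promoter element and is itself a short-lived proteasome substrate.

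Values are log2 ratios of Cy5 over Cy3, so that a positive value means more transcript in AS cells. Each array was centred on its median, which ranged from −0.52 to 0.23 as deposited, so a value is relative to the median gene of its array. In such bulk RNA, a change in the share of cells that use a gene and a change of RNA per cell cannot be told apart. The YPK1 and YPK2 plasmids were visible on the WT array, where YPK2 stood at 5.49 and YPK1 at −4.33. In the Ypk1 series, YPK1 was at 0.73 at 0 min and at 0.82, 2.44 and 1.55 at the later times. In the Ypk2 series, YPK2 was at 1.06 at 0 min and at 1.36, 1.53 and 1.36 at the later times. AS cells thus held more transcript of their plasmid kinase than WT cells already at 0 min. The kinase gene absent from the plasmid gave ratios too. In the Ypk1 series, YPK2 was at 0.25 at 0 min and at 1.42, 0.52 and 0.945 later. Its mean later ratio of 0.96 was called higher (limma adjusted p = 0.0173), although the gene was deleted in both cultures. In the Ypk2 series, YPK1 was at −0.10 and then at 0.20, 0.11 and −0.62. The source of these signals was not tested.

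After inhibition of either kinase, the median proteasome gene stood above the median gene of the genome, while single subunits spread widely around it. The median over the 33 genes of the mean ratio at 15, 30 and 60 min was 0.26 with Ypk1 inhibited and 0.40 with Ypk2 inhibited. Over all 6220 features tested it was −0.01 and 0.01. For the core particle the medians were 0.29 and 0.62, and for the regulatory particle 0.20 and 0.26. Of the 33 genes, 21 had a mean later ratio above 0 with Ypk1 inhibited and 27 with Ypk2 inhibited. These positions are relative to the median gene: without centring, the median of all features itself was −0.29 and −0.28, and that of the 33 genes turned to −0.02 in the Ypk1 series and was 0.10 in the Ypk2 series. The core medians were then 0.01 and 0.33, and the regulatory medians turned to −0.08 and −0.03.

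**Figure D1:**
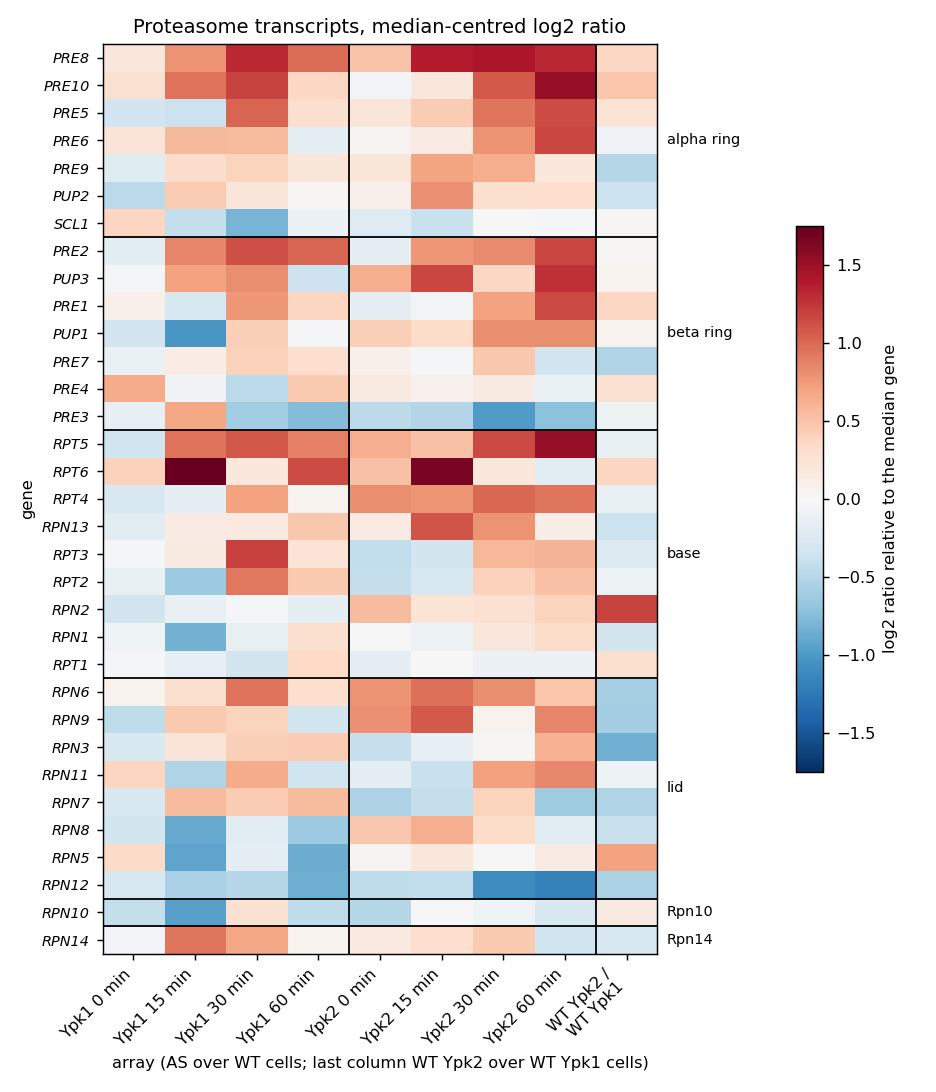
Median-centred log2 ratio of each of the 33 proteasome genes (rows, grouped by ring, base and lid) on each of the 9 arrays (columns). Red marks more transcript in the AS cells of the series (in WT Ypk2 cells for the last column), blue less. PRE8, PRE10, PRE2 and RPT5 are red at every later time of both series, and RPN12 is blue throughout.

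Few of these genes passed a test by themselves. In the limma fit, the mean of the 3 later ratios was called higher at an adjusted p under 0.05 for 3 of 33 genes in the Ypk1 series, namely PRE8, PRE2 and RPT5, and lower for 0. Of all features, 10.9% were called higher and 10.5% lower in that series, so the share of proteasome genes called higher, 9.09%, lay near the background. In the Ypk2 series, PRE8, PRE2, RPT5 and RPT4 were called higher (4 of 33, 12.1%) and RPN12 lower (1 of 33, 3.03%), against 6.98% and 4.73% of all features. At an unadjusted p under 0.05 there were 9 genes for Ypk1 (6 higher, 3 lower), 27.3% against 36.8% of all features, and 15 for Ypk2 (13 higher, 2 lower), 45.5% against 27.6%. The fit takes the later times as repeated looks at one state, which was not tested, and its p-value measures the spread between times.

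Calls in the Ypk2 series were lost across the genome when either of 2 arrays was left out, while the levels of the called members moved less. Without the Ypk2 30 min array, 0 of the 33 genes and 0.772% of all features were called higher, and 0.0804% of all features lower. Without the Ypk2 60 min array, again 0 of the 33 were called, with 1.18% of all features higher and 0.208% lower. The mean ratio of PRE8 was 1.35 and 1.40 in these fits, that of RPT4 0.85 and 0.89, that of PRE2 0.96 and 0.79, that of RPT5 1.02 and 0.84, and that of RPN12 −0.80 and −0.77. Without the Ypk2 15 min array, PRE2 and RPT4 lost their call and PRE10 gained one, with 4.37% of all features called higher and 2.11% lower. Without 30 min or without 60 min in both series, 0 of the 33 genes were called in either. Of all features, 2.2% and 2.38% were then called higher and 1.93% and 2.59% lower for Ypk1, and 0% for Ypk2. PRE2 stood at 0.94 and 0.99 in these fits of the Ypk1 series. Without centring, the Ypk1 series had 2 genes called higher (PRE8, PRE2; 5.59% of all features) and 3 called lower (RPN5, RPN12, RPN8; 19.3%). The Ypk2 series then had 1 called higher (PRE8; 3.63%) and 2 called lower (RPN12, PRE3; 9.87%).

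A mean over both series, a contrast added after the data were seen, was called higher for 7 of the 33 genes and lower for 1. The 7 were PRE8, PRE2, PRE10, PUP3, RPT5, RPT4 and RPN6, and the 1 was RPN12. Of all features, 16.1% were called higher and 15.1% lower. PRE8, PRE2 and RPT5 were called in this contrast under all 15 alternatives run for it, with adjusted p-values up to 0.0201, 0.0346 and 0.047.

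Each later ratio can also be set against the 0 min array of its own series, which takes out any gap of strain or dye present before inhibition. For this change, 0 of the 33 genes passed in limma in either series, where 0.0482% and 0% of all features did. At an unadjusted p under 0.05 there were 3 genes in the Ypk1 series (PRE2, RPT5 and RPN5), 9.09% against 11.3% of all features, and 1 in the Ypk2 series (PRE2), 3.03% against 5.16%. The median change was 0.42 for the 33 genes and 0.01 for all features in the Ypk1 series, and 0.29 and 0.03 in the Ypk2 series. Without centring, the Ypk1 medians were −0.10 and −0.51, so the median proteasome gene then lay below 0 but above the median feature.

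Counted without a test, all 3 later ratios lay above the 0 min ratio for 16 of 33 genes in the Ypk1 series, against 28% of all features, and below it for 4 (SCL1, PRE4, RPN5 and RPN12), against 27%. For Ypk2 they lay above for 12 genes, against 27.8%, and below for 2 (PRE3 and RPN2), against 28.7%. PRE8, PUP2, PRE10, PRE2, RPT3 and RPN3 were above in both series, and the share of all features above in both was not counted. Above 0 on all 6 later arrays were 8 of 33 genes (PRE8, PRE9, PUP2, PRE10, PRE2, RPT5, RPN13 and RPN6), against 14.9% of all features. Below 0 on all 6 were SCL1 and RPN12, against 15.2%.

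On single arrays, proteasome genes at least 1.5-fold above the median gene were fewest at 0 min in both series, as were such features overall. At 0 min of the Ypk1 series, 1 of 33 genes was at least 1.5-fold up (PRE4) and 0 down, against 11.4% and 7.26% of all features. At 15 min 8 were up and 6 down (23.7% and 26.2% of all features), at 30 min 13 up and 2 down (20.8% and 20%), and at 60 min 4 up and 4 down (22.9% and 21.8%). The 30 min array thus stood out in this series, with 39.4% of the genes up. At 0 min of the Ypk2 series 5 were up and 0 down (12.1% and 4.71% of all features). At 15 min 11 were up and 0 down (20% and 14.1%), at 30 min 13 up and 2 down (16.1% and 13.8%), and at 60 min 14 up and 3 down (20.7% and 18.1%). On the WT array 2 were up (RPN2 and RPN5) and 2 down, against 10.2% and 11.7%. With 1 array per condition these counts have no test.

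**Figure D2:**
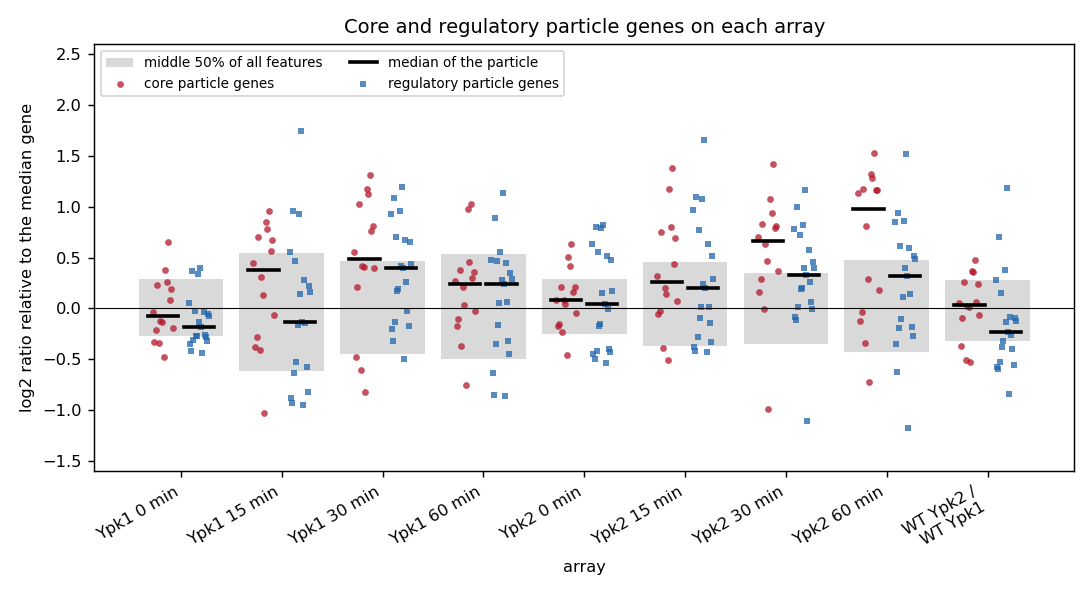
Median-centred log2 ratios on each of the 9 arrays of the 14 core particle genes (red circles) and the 19 regulatory particle genes (blue squares). Each point is 1 gene, black bars are the medians of the particle, and grey boxes span the middle 50% of all features. The core median is highest at 60 min of the Ypk2 series, at 0.97, and both medians lie below 0 at 0 min of the Ypk1 series.

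The alpha ring, whose tails form the gate of the core particle, held the subunit with the highest mean later ratio over both series. PRE8 (YML092C, subunit alpha 2) stood at 0.19 at 0 min and 0.78, 1.31 and 0.97 at 15, 30 and 60 min of the Ypk1 series. With Ypk2 inhibited it stood at 0.50 and then at 1.38, 1.42 and 1.32, and on the WT array at 0.37. Every later ratio exceeded the 0 min ratio of its own series, and AS cells were already above WT cells at 0 min. The mean later ratio was 1.02 ± 0.27 (SD over 3 times), a 2.03-fold level, in the Ypk1 series (limma adjusted p = 0.00864) and 1.37 ± 0.05, 2.59-fold, in the Ypk2 series (adjusted p = 0.00569). Over the 16 alternatives run for each series, its adjusted p ranged up to 0.112 and 0.116, and it passed in 14 and 12 of them.

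PRE10 (YOR362C, subunit alpha 7) was the other strong member of the alpha ring. In the Ypk1 series it was at 0.26 and then at 0.95, 1.18 and 0.36. For Ypk2 the ratios were −0.05 and then 0.20, 1.07 and 1.53, with 0.48 on the WT array. It peaked at 30 min in one series and was highest at 60 min in the other, and its means of 0.83 ± 0.42 and 0.93 ± 0.68 had adjusted p-values of 0.0685 and 0.0679. PRE5 (alpha 6) showed a similar course in the Ypk2 series, with 0.21 at 0 min and 0.44, 0.94 and 1.14 later, while in the Ypk1 series it was low at 15 min (−0.38) and high at 30 min (1.02). PRE6 (alpha 4) likewise was highest at 60 min of the Ypk2 series, at 1.17, and at −0.17 at 60 min of the Ypk1 series. Adjusted p-values for PRE5 and PRE6 were 0.0923 or more.

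PRE9 (alpha 3) and PUP2 (alpha 5) were above 0 at each later time by smaller amounts. PRE9 lay between 0.18 and 0.69 on the 6 later arrays and PUP2 between 0.03 and 0.80. Both stood below 0 on the WT array, at −0.50 and −0.37. SCL1 (YGL011C, subunit alpha 1) was the exception in this ring. It was at 0.37 at 0 min of the Ypk1 series and at −0.41, −0.82 and −0.10 later, and at −0.23 at 0 min of the Ypk2 series and −0.39, −0.01 and −0.04 later. On the WT array it was at 0.02. None of its 6 later ratios was above 0, yet its means of −0.44 ± 0.36 and −0.14 ± 0.21 did not pass (adjusted p = 0.168 and 0.715).

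In the beta ring the peptidase subunits diverged. PRE2 (YPR103W, subunit beta 5, which carries the chymotrypsin-like site) stood at −0.20 at 0 min of the Ypk1 series and at 0.85, 1.13 and 1.02 later. With Ypk2 inhibited it stood at −0.15 and then at 0.75, 0.83 and 1.18, with 0.02 on the WT array. It was the one member near or below 0 on all 3 arrays without inhibition time and above 0.7 on all 6 later arrays. Its means were 1.00 ± 0.14 (adjusted p = 0.00926) and 0.92 ± 0.22 (adjusted p = 0.0208), a 2-fold and a 1.89-fold level. Against 0 min it was 1.20 and 1.07 higher, which did not pass (adjusted p = 0.313 and 0.881).

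PRE3 (YJL001W, subunit beta 1, which carries the caspase-like site) took the opposite position in the Ypk2 series. There it was at −0.46 at 0 min and at −0.51, −0.99 and −0.72 later. In the Ypk1 series it was at −0.14 and then at 0.67, −0.61 and −0.76, so it changed sign between 15 and 30 min, and on the WT array it was at −0.09. Its means of −0.23 ± 0.79 and −0.74 ± 0.24 did not pass (adjusted p = 0.597 and 0.137). PUP1 (subunit beta 2, with the trypsin-like site) was at −1.02 at 15 min of the Ypk1 series, the lowest value of any core gene there, and at 0.42 and −0.02 later. With Ypk2 inhibited, PUP1 was at 0.42 at 0 min and at 0.32, 0.81 and 0.81 later, and the difference between its kinase means of −0.86 did not pass (adjusted p = 0.516). The 3 peptidase genes therefore did not share a course in the Ypk1 series.

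Among the beta subunits without a peptidase site, PUP3 and PRE1 were high late in the Ypk2 series. PUP3 (YER094C, subunit beta 3) was at −0.04 and then at 0.70, 0.81 and −0.36 in the Ypk1 series, and at 0.64 and then at 1.17, 0.37 and 1.28 in the Ypk2 series, with 0.06 on the WT array. Its ratio thus swung by more than a log2 unit between neighbouring times in the Ypk1 series, and its means of 0.38 ± 0.65 and 0.94 ± 0.50 did not pass (adjusted p = 0.373 and 0.0703). PRE1 (beta 4) was at −0.18 at 0 min of the Ypk2 series and at −0.05, 0.70 and 1.16 later. PRE7 (beta 6) and PRE4 (beta 7) stayed closer to the median gene, with later ratios from −0.34 to 0.47 and from −0.47 to 0.46. PRE4 had its highest value, 0.65, at 0 min of the Ypk1 series.

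**Figure D3:**
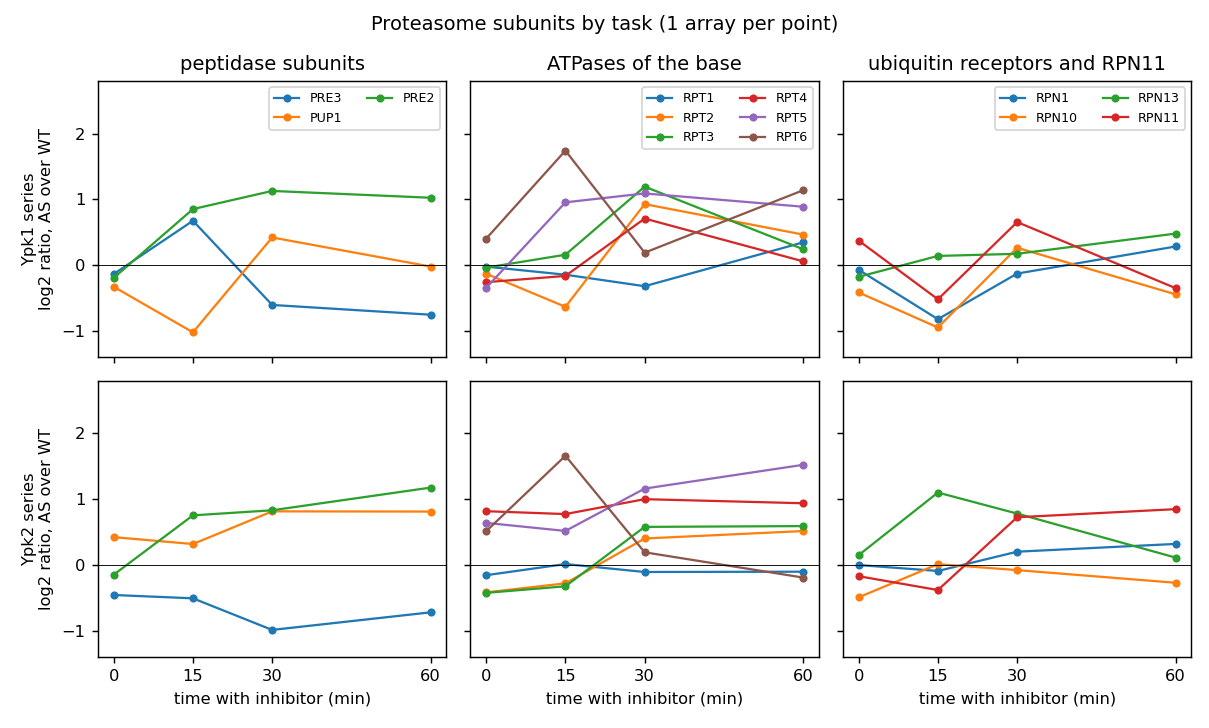
Median-centred log2 ratio of AS over WT cells against time with inhibitor (min) in the Ypk1 series (top) and the Ypk2 series (bottom), for the 3 peptidase subunits, the 6 ATPases of the base, and the ubiquitin receptors with the deubiquitinase RPN11. Each point is 1 array. PRE2 lies above 0.7 at every later time, PRE3 ends below 0 in both series, and RPT6 peaks at 15 min in both.

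The ATPases of the base had medians of 0.39 and 0.42 for the mean later ratio in the Ypk1 and Ypk2 series. RPT5 (YOR117W) stood at −0.35 at 0 min of the Ypk1 series and at 0.95, 1.09 and 0.89 later. The Ypk2 ratios were 0.64 and then 0.52, 1.16 and 1.52, with −0.14 on the WT array. All later ratios lay above the 0 min ratio in the first series, while in the second the 15 min ratio did not. Its means of 0.98 ± 0.10 (1.97-fold, adjusted p = 0.0191) and 1.07 ± 0.51 (2.09-fold, adjusted p = 0.0225) passed. It lost the Ypk1 call without the Ypk1 15, 30 or 60 min array, where PRE8 and PRE2 kept theirs, although its mean ratio was still 0.99, 0.92 and 1.02.

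RPT6 (YGL048C) peaked at 15 min and dropped at 30 min in both series, and the 60 min ratios went apart. It was at 0.40 at 0 min of the Ypk1 series and at 1.74, 0.19 and 1.14 later, and at 0.51 at 0 min of the Ypk2 series and at 1.66, 0.19 and −0.19 later. On the WT array it was at 0.37. Its 15 min ratios were the highest of any proteasome gene on any array, and its 30 min ratios lay below the 0 min ratios. With this spread, its means of 1.02 ± 0.78 and 0.55 ± 0.98 did not pass (adjusted p = 0.0931 and 0.403).

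RPT4 (YOR259C) was high in the Ypk2 series already at 0 min. It stood there at 0.82 at 0 min and at 0.77, 1.00 and 0.94 later, so that its change against 0 min was 0.09. The mean later ratio of 0.90 ± 0.12 (1.87-fold) passed (adjusted p = 0.0333). In the Ypk1 series it stood at −0.26 and then at −0.17, 0.71 and 0.06, a mean of 0.20 ± 0.45 (adjusted p = 0.551), and on the WT array at −0.12. The difference between the kinases of −0.70 did not pass (adjusted p = 0.516). RPT5, RPN6, RPN9 and PUP3 also had 0 min ratios above 0.6 in that series.

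The other ATPases had no mean that passed. RPT2 and RPT3 were highest at 30 min of the Ypk1 series, at 0.93 and 1.19, a time at which 20 of the 33 genes had their highest later ratio. At 15 min of that series RPT2 was at −0.64 and RPT3 at 0.16. Both were below 0 at 0 and 15 min of the Ypk2 series and between 0.40 and 0.59 at 30 and 60 min. RPT1 stayed within −0.32 and 0.34 on all 9 arrays, the narrowest course of the ATPases.

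The non-ATPase subunits of the base are the scaffolds Rpn1 and Rpn2 and the ubiquitin receptor Rpn13, and Rpn1 also binds ubiquitin and its shuttles. RPN13 was above 0 on all 6 later arrays, between 0.11 and 1.10, with its maximum at 15 min of the Ypk2 series. RPN1 was at −0.82 at 15 min of the Ypk1 series and between −0.13 and 0.32 on the other later arrays. RPN2 (YIL075C) was below 0 at all 3 later times of the Ypk1 series (−0.13, −0.02 and −0.17) and above 0 at all 3 of the Ypk2 series (0.24, 0.26 and 0.40). The same sign difference was there at 0 min (−0.32 and 0.56), and on the WT array RPN2 was at 1.18, the highest of the 33 genes. Its kinase difference of −0.41 did not pass (adjusted p = 0.635). RPN10, the third ubiquitin receptor, which sits between base and lid, was at −0.95, 0.26 and −0.45 at the later times of the Ypk1 series and at 0.01, −0.08 and −0.27 in the Ypk2 series.

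The lid genes lay closest to the genome on balance, with medians of 0.05 and 0.21, because high and low members offset each other. RPN6 (YDL097C), a lid subunit that clamps the lid to the core, was at 0.06 at 0 min of the Ypk1 series and at 0.28, 0.95 and 0.29 later. It was at 0.79 at 0 min of the Ypk2 series and at 0.96, 0.82 and 0.49 later, and at −0.57 on the WT array. All later ratios were above 0, and those of the Ypk2 series were near the 0 min ratio. Its means of 0.51 ± 0.39 and 0.76 ± 0.24 had adjusted p-values of 0.129 and 0.0584.

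RPN12 (YFR052W), a lid subunit needed to complete the regulatory particle, was low on every array. It was at −0.28 at 0 min of the Ypk1 series and at −0.57, −0.49 and −0.85 later, and at −0.45 at 0 min of the Ypk2 series and at −0.43, −1.11 and −1.18 later. On the WT array it was at −0.55, so the gene was also lower in WT Ypk2 than in WT Ypk1 cells. The mean of −0.90 ± 0.41 in the Ypk2 series, a 1.87-fold lower level, passed (adjusted p = 0.0312), and the mean of −0.64 ± 0.19 in the Ypk1 series did not (adjusted p = 0.0678). The change against 0 min was −0.36 and −0.46, and neither passed (adjusted p = 0.777 and 1).

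RPN5 (YDL147W) and RPN8, lid subunits, had the smallest adjusted p-values for a difference between the kinases. RPN5 stood at 0.34 at 0 min of the Ypk1 series and at −0.93, −0.18 and −0.86 later, and at 0.04 and then at 0.20, −0.01 and 0.15 in the Ypk2 series, with 0.70 on the WT array. RPN8 stood at −0.32 and then at −0.88, −0.20 and −0.64 in the Ypk1 series, and at 0.47 and then at 0.64, 0.32 and −0.19 in the Ypk2 series. The later ratios of the 2 series do not overlap for either gene, although for RPN8 the highest of one (−0.20) and the lowest of the other (−0.19) nearly meet. Those of PRE8, RPT4, RPN2 and RPN7 did not overlap either, and the share of all features without overlap was not counted. The kinase differences of RPN5 and RPN8 were −0.77 and −0.83, each with an adjusted p of 0.492. No proteasome gene passed this test, nor did any other feature (0%), and 2 of the 33 (6.06%) had an unadjusted p under 0.05, against 9.68% of all features. With the time shared by both series as a block, an alternative added after the data were seen, 0 genes and 0 features passed.

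RPN11, the metalloprotease that cuts ubiquitin chains from substrates, alternated in the Ypk1 series, from 0.37 at 0 min to −0.52, 0.65 and −0.35. For Ypk2 it was at −0.17 and then at −0.38, 0.72 and 0.85. RPN7 was steady in the Ypk1 series at 0.55, 0.44 and 0.55 after −0.27 at 0 min, and in the Ypk2 series it was at −0.42, 0.39 and −0.62 after −0.54. RPN3 was at −0.84 on the WT array, the lowest of the 33 genes there, and its later ratios ran from −0.15 to 0.61. RPN9 ranged from −0.32 to 1.08 over the 6 later arrays. The chaperone gene RPN14 was highest at 15 min of the Ypk1 series, at 0.93, and at −0.35 at 60 min of the Ypk2 series. No mean of these genes passed.

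The core median exceeded the regulatory median on 8 of 9 arrays. The difference was 0.10 at 0 min of the Ypk1 series and 0.51, 0.09 and 0.00 at the later times. It was 0.04 at 0 min of the Ypk2 series and 0.06, 0.34 and 0.66 later, and 0.27 on the WT array. Over the 6 later arrays it averaged 0.28 ± 0.27 (SD). The values at 0 min and on the WT array fall within the range of the later arrays, and as genes of a particle are no replicates, the difference has no test.

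**Figure D4:**
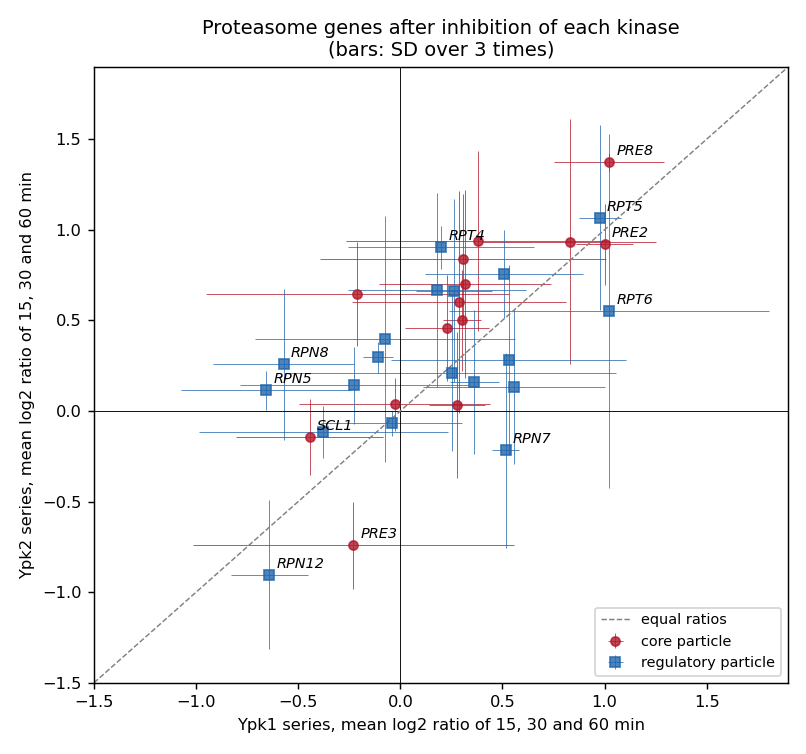
Mean log2 ratio at 15, 30 and 60 min of each of the 33 proteasome genes in the Ypk1 series (horizontal) and the Ypk2 series (vertical), with bars of the SD over the 3 times. Red circles are core particle genes, blue squares regulatory particle genes, and the dashed line marks equal ratios. PRE2 and RPT5 lie near 1 on both axes, PRE8 at 1.02 and 1.37, and RPN12 lies below −0.6 on both.

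Mean later ratios of the 2 series correlated across the 33 genes with a Pearson r of 0.66, across the core with 0.78 and across the regulatory particle with 0.56, against 0.69 across all features. These are correlations across genes, which are not independent, and every array shares the dye orientation. Over the 8 time-course arrays, the median r between pairs of proteasome genes was 0.14 over 528 pairs (core pairs 0.16, regulatory pairs 0.12, mixed pairs 0.15), and 0.00 over all pairs of features. An r above 0 was found for 58.9% of the pairs of proteasome genes and 50% of all pairs.

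The time of the highest later ratio was counted for each gene, without a test. In the Ypk1 series 20 of 33 genes (60.6%) were highest at 30 min, against 34.7% of all features, with 7 highest at 15 min and 6 at 60 min. In the Ypk2 series 12 were highest at 15 min, 8 at 30 min and 13 at 60 min, shares of 36.4%, 24.2% and 39.4% against 37.6%, 22.9% and 39.5% of all features. The peak at 30 min in the Ypk1 series rests on 1 array.

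RPN4 itself, the activator gene, stayed near the median gene in the Ypk1 series: −0.08 at 0 min and 0.01, 0.05 and 0.10 later. Its Ypk2 ratios were 0.19 at 0 min and 0.02, 0.36 and 1.02 later, and on the WT array at 0.52. Its means of 0.06 ± 0.04 and 0.46 ± 0.51 did not pass (adjusted p = 0.875 and 0.232). Its single high value fell at 60 min of the Ypk2 series, where the core median was 0.97, its highest, and the regulatory median 0.32. The regulatory median was highest, at 0.39, at 30 min of the Ypk1 series, where RPN4 was at 0.05. A link between RPN4 and these medians was not tested. Arrays measure the transcript and give no level of the short-lived Rpn4 protein.

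Of the list of 7 genes of RPN4 and its regulators, 3 were called lower with Ypk1 inhibited (42.9%, against 10.5% of all features) and 0 with Ypk2 inhibited (against 4.73%). PDR1, which encodes a drug-resistance factor that activates RPN4, was at 0.13 at 0 min of the Ypk1 series and at −0.84, −1.55 and −0.85 later, a mean of −1.08 ± 0.41 (adjusted p = 0.0121). PDR3, its paralog, was at −0.41 and then at −0.92, −0.83 and −0.70 (mean −0.82 ± 0.11, adjusted p = 0.0177). MUB1, a partner of the ubiquitin ligase Ubr2 in the degradation of Rpn4, was at −0.16 and then at −0.41, −0.79 and −1.15 (mean −0.78 ± 0.37, adjusted p = 0.0301). Their Ypk2 means were −0.26, −0.42 and −0.06, and the kinase differences did not pass (adjusted p from 0.492 to 0.652). UBR2, YAP1 and HSF1 were not called in either series.

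Of 14 genes that supply and carry ubiquitin, 4 (28.6%) were called higher in each series, the same 4 in both, against 10.9% and 6.98% of all features. Another 1 (7.14%) was called lower in the Ypk1 series, against 10.5%. UBI4, the stress-induced polyubiquitin gene, was at 0.93 at 0 min of the Ypk1 series and at 1.58, 2.49 and 2.39 later, and at 0.68 and then at 1.72, 2.31 and 3.06 in the Ypk2 series, with 0.98 on the WT array. It was thus above 0 on every array and highest at the later times, with means of 2.15 ± 0.50 (4.45-fold, adjusted p = 0.00253) and 2.37 ± 0.67 (5.16-fold, adjusted p = 0.0035). UBA1, the ubiquitin-activating enzyme, was at −0.01 and then at 0.79, 1.54 and 1.00 in the Ypk1 series, and at 0.36 and then at 1.42, 1.47 and 1.46 in the Ypk2 series. UBC5, a conjugating enzyme of the stress response, had means of 1.06 ± 0.64 and 1.49 ± 0.26, and DSK2, a shuttle that carries ubiquitinated proteins to the proteasome, 0.91 ± 0.25 and 1.10 ± 0.15. UBI4 shares its ubiquitin sequence with RPS31 and the RPL40 genes, and UBC5 is a close paralog of UBC4, so these ratios are uncertain where probes do not separate the copies. Adjusted p-values for UBA1, UBC5 and DSK2 were 0.0233 or lower in both series. UFD4, a ubiquitin ligase, was lower in the Ypk1 series (mean −1.05 ± 0.41, adjusted p = 0.028). The remaining 9 genes, UBC4, RSP5, UBR1, RAD23, DDI1, CDC48, UFD1, NPL4 and SHP1, were not called. The change of UBI4 against 0 min was 1.23 and 1.69 and did not pass either (adjusted p = 0.472 and 0.869).

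**Figure D5:**
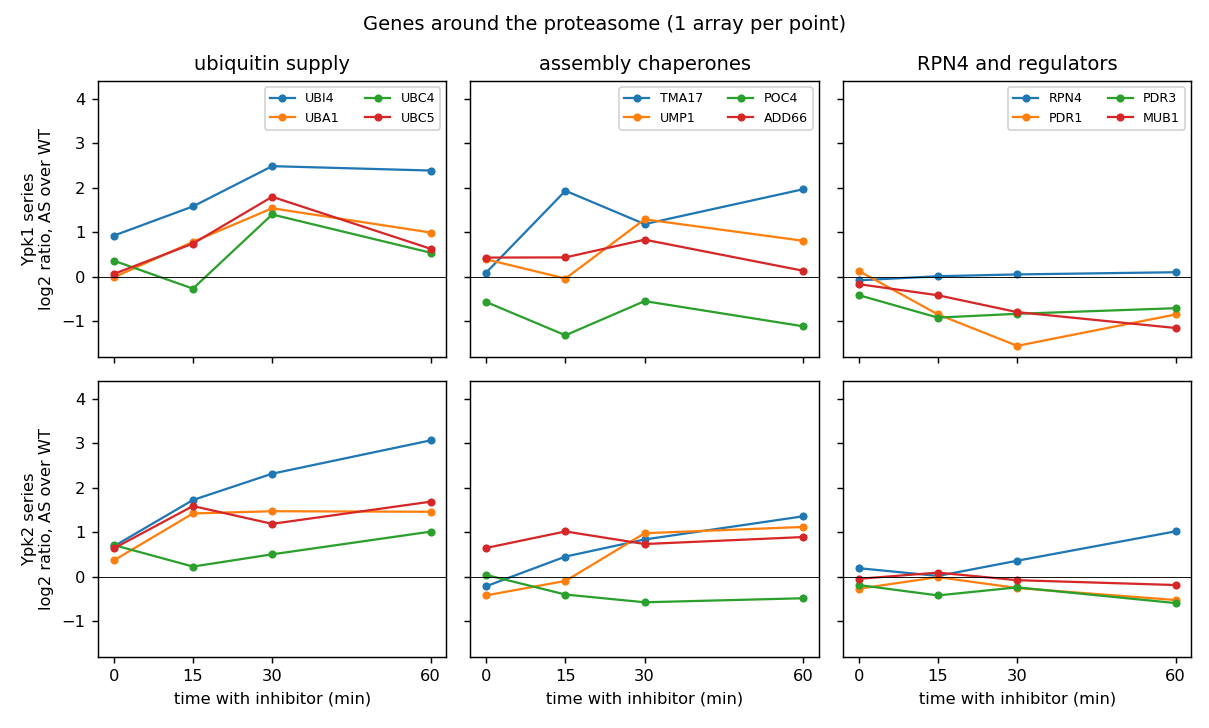
Median-centred log2 ratio of AS over WT cells against time with inhibitor (min) in the Ypk1 series (top) and the Ypk2 series (bottom), for 4 genes of ubiquitin supply, 4 proteasome assembly chaperones, and RPN4 with 3 of its regulators. Each point is 1 array. UBI4 is highest at the late times of both series, RPN4 departs from 0 only at 60 min of the Ypk2 series by more than 0.4, and PDR1, PDR3 and MUB1 are lower in the Ypk1 series.

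Among 9 assembly chaperones, each series had 1 gene called higher, and the Ypk1 series 1 called lower. Each is a share of 11.1%, near the 10.9% higher and 10.5% lower of all features in the Ypk1 series and above the 6.98% higher in the Ypk2 series. TMA17 (also named ADC17), a stress-induced chaperone for the ATPase ring, was at 0.10 at 0 min of the Ypk1 series and at 1.93, 1.19 and 1.97 later, a mean of 1.70 ± 0.44 (3.24-fold, adjusted p = 0.00362). In the Ypk2 series it was at −0.21 and then at 0.45, 0.84 and 1.36, a mean of 0.88 ± 0.45 that did not pass (adjusted p = 0.0557), and on the WT array at −0.34. ADD66, a chaperone of the alpha ring, was higher in the Ypk2 series (mean 0.88 ± 0.14, adjusted p = 0.0291), where its 0 min ratio was already 0.65. POC4, another alpha-ring chaperone, was lower in the Ypk1 series (mean −0.99 ± 0.40, adjusted p = 0.0136) and below 0 at all later times of the Ypk2 series. UMP1, which matures the beta ring, was at −0.04, 1.29 and 0.81 and at −0.10, 0.98 and 1.12 at the later times. Its mean in each series did not pass (adjusted p = 0.151 and 0.217), while its mean over both series did (0.68, limma adjusted p = 0.0489). That contrast called 33.3% of the assembly chaperones higher and 11.1% lower, against 16.1% and 15.1% of all features. PBA1, IRC25, HSM3, NAS2 and NAS6 were not called.

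Of 7 partners of the assembled proteasome, CIC1 was called lower in the Ypk1 series and SPG5 higher in the Ypk2 series. These are shares of 14.3%, against 10.5% and 6.98% of all features. CIC1, a proteasome adaptor that is also known as a ribosome assembly factor, was at −0.40 at 0 min and at −1.67, −1.15 and −1.22 later in the Ypk1 series (mean −1.35 ± 0.28, adjusted p = 0.00346), and its Ypk2 mean was −0.39 ± 0.08. SPG5, a regulator of the proteasome in stationary phase, was at 0.16 at 0 min and at 0.55, 1.39 and 1.94 later in the Ypk2 series (mean 1.29 ± 0.70, adjusted p = 0.0202). On the WT array SPG5 was at 1.67. SEM1, the small lid subunit outside the name rule, was at −0.04, 0.62 and 0.81 and at 1.04, 0.83 and −0.14 at the later times, and did not pass (adjusted p = 0.264 and 0.224). The deubiquitinase gene UBP6, the alternative cap gene BLM10, ECM29 and HUL5 were not called in either series. In the mean over both series, ECM29 was called higher (0.50, limma adjusted p = 0.0241). That contrast called 28.6% of the partners higher and 14.3% lower, against 16.1% and 15.1% of all features.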

How the data were processed

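Poly(A) RNA of yeast cultures was compared on 9 two-colour arrays. The authors deposited log2 ratios; scale and direction (Cy5 over Cy3, read from YPK1 and YPK2 on the WT array and assumed for the others) were taken from the values, and scanner, background correction and normalization are not given in the sources used here. Of 6268 features, 5777 matched a systematic name of the R64 annotation, used for gene names only. Arrays were centred on their medians, and limma 3.58.1 in R 4.3.3 was fitted to the 6220 features present on all 8 time-course arrays, with 1 mean per kinase for 0 min and for the later times (4 residual degrees of freedom). The single 0 min arrays are assumed to vary like the others. P-values were adjusted by Benjamini-Hochberg over all 6220 features with a threshold of 0.05, and 48 features with a missing value were left out. The p-values measure the spread between times, possibly of 1 culture, and not between independent cultures. The number of arrays limits the precision. The fit was also run on simulated data with independent noise on each array. Such data cannot show how the fit behaves when successive times are related.

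The members and gene lists were chosen with earlier results of these data known. Values on all arrays were given for RPN4, YPK1 and YPK2. They were also given for the 4 highest and 2 lowest members of each particle by the mean of the 6 later ratios. For up to 3 genes of each other list, values were given on all or part of the arrays. Further members were described after their values were seen. Alternatives were other scalings, array weights, a robust prior, missing values kept, each kinase alone, and times or arrays left out.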

Additional observations from a re-analysis of the deposited data

How the results depend on the processing

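Without centring, 2 proteasome genes were called higher and 3 lower in the Ypk1 series (5.59% and 19.3% of all features). In the Ypk2 series 1 was higher and 2 lower (3.63% and 9.87%). For the mean of both series 4 were higher and 4 lower (8.01% and 30.6%). For genes called higher in the Ypk2 series, scaling arrays to one spread gave 8, quantile normalization 7 and array weights 22, while 11.2%, 10.1% and 33.7% of all features were called, against 6.98% as reported. Array weights gave 2 called lower in the Ypk2 series (33.1% of all features), and 12 higher and 2 lower for the mean of both (22% and 21.2% of all features). That weight estimate stopped before convergence. Each kinase fitted alone gave 2 lower in the Ypk2 series (6.86% of all features). When a time or a later array was left out, counts ran from 0 to 4 higher and 0 to 1 lower in the Ypk1 series, from 0 to 6 higher and 0 to 2 lower in the Ypk2 series, and from 3 to 10 higher and 0 to 2 lower for the mean of both. Of all features, 2.2% to 10.6% were then called higher and 1.93% to 9.58% lower in the Ypk1 series. In the Ypk2 series these shares ran from 0% to 9.39% and from 0% to 6.48%. For the mean of both they ran from 6.65% to 16.1% and from 4.56% to 14%. Of the member values on the 6 later arrays, with 1 value per member and array, 63 were at least 1.5-fold up and 17 down. At 2-fold these were 25 and 3, and without centring 34 and 33. On single later arrays, 16.1% to 23.7% of all features were at least 1.5-fold up and 13.8% to 26.2% down. At 2-fold, 490 to 769 of the 6225 to 6268 features with a value were up on single later arrays, and 231 to 810 were down. Shares of all features pooled over these arrays or without centring were not counted, so the pooled counts have no exactly matching background. The core minus regulatory difference, averaged over the 6 later arrays, kept its sign under each of the 4 alternatives run for it. Tests of the change against 0 min and of the kinase difference called 0 members under every alternative run. Of all features, these tests called the most with array weights. The shares were then 0.498% higher and 0.916% lower for the Ypk1 change, and 1.08% and 1.48% for the Ypk2 change. For the kinase difference they were 0.129% and 0%. Single-gene results kept their side of the threshold in 687 of the cases run, gained a call in 37 and lost one in 76. The 687 include genes that were called in neither fit, so they do not measure how often a call was kept. The cause of these shifts was not tested. With the shared time as a block, the kinase difference called 0 members, and 6.06% of members and 9.32% of all features had an unadjusted p under 0.05. No replicate pairs exist, since each condition has 1 array. The planned search of promoters for the Rpn4 element was not run, since no promoter sequences were used here.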

Other observations

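NAS2 and HUL5 lay on opposite sides of the median gene in the series at all 3 later times, as RPN2 did. They were found by a search through all members and all genes of the other lists. The share of all features with this pattern was not counted, so it is not known whether it is more frequent here. NAS2, an assembly chaperone of the ATPase ring, had ratios of 0.81, 0.26 and 0.64 in the Ypk1 series and −0.11, −0.46 and −0.58 in the Ypk2 series. HUL5, a ubiquitin chain-extending ligase bound to the proteasome, had ratios of 0.23, 0.45 and 0.30 and of −0.15, −0.13 and −0.27. Neither kinase difference passed (limma adjusted p = 0.44 and 0.549). NAS6, a chaperone of the ATPase Rpt3, was highest before or early in inhibition: 1.36 at 0 min and 1.84, 0.02 and 0.46 later in the Ypk1 series, and 1.20 and then 0.32, 0.09 and 0.04 in the Ypk2 series. SHP1, a cofactor of Cdc48, was at −2.94 on the WT array and between −0.21 and 0.66 on the other 8. These genes were picked after their values were seen.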
